A study of Mus musculus with 28 samples.

Results

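The keratin genes were taken as the protein-coding mouse genes whose symbol is Krt followed by digits only in the GENCODE vM1 annotation of mm9, which gave 46 of 22380 protein-coding genes. Of these, 25 lie on chromosome 11, where the type I (acidic) genes are clustered, and 21 on chromosome 15, where the type II (basic) genes and Krt18 are. A peak of H3K27ac was counted as a keratin peak where its summit lay within 100 kb of a start site of a keratin gene and no start site of another protein-coding gene was nearer. By this rule 1339 of 893719 peaks in 15 libraries were keratin peaks. Overlapping peaks of all libraries were merged into 89050 regions, of which 107 were keratin regions, and 87 of them, called in at least 3 libraries, were among the 60506 regions tested. The other 20 were called in 1 or 2 libraries. Symbols that end in a letter, such as Krt6a, are not members.

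The data came from NMuMG cells, an untransformed mouse mammary gland epithelial line, here the subclone NMuMG/E9, in which TGF-β starts an epithelial-to-mesenchymal transition (EMT). Acetylation of histone H3 at lysine 27, a mark of active promoters and enhancers, was mapped by ChIP-seq with the antibody ab4729 in 3 replicate libraries for each of 5 conditions. The conditions were untreated cells (0h), cells given 2 ng/ml TGF-β with the solvent DMSO and taken after 4h or 24h, and cells that received 25 µM of the MEK inhibitor UO126 30 min before the same TGF-β treatment (ERKi 4h and ERKi 24h). No inhibitor without TGF-β is among these groups, and nothing says that replicates came from separate cultures, so p-values measure the spread between these libraries.

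Keratins are the intermediate filament proteins of epithelial cells and are built as pairs of a type I and a type II chain, joined to desmosomes and hemidesmosomes at the cell border. Simple epithelia, such as the luminal cells of the mammary gland, carry Krt8 with Krt18 and Krt19, whereas basal cells carry Krt5 with Krt14 and the suprabasal epidermis carries Krt1 with Krt10. Loss of keratins and gain of vimentin filaments is a known part of EMT.

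Each peak is described by its pileup, the number of overlapping fragments at the summit, and by the percentile of that pileup among all peaks of the same library, so that 100 is the strongest peak of the library and 0 means that no peak was called. A 0 does not mean that no reads were there. Regions beside a strong peak have a high local background (the count that the peak caller expected there), and whether a peak is called in them turns on few reads. The fold enrichment is the pileup over the local background, and its percentile is given beside called regions where it turns the direction or ends the call. The lists held 50445 to 69180 peaks per library (median 57660), with a median pileup of 38 to 57, and no read totals. The peak names of 1 library, ERKi 4h replicate 1, carry a library number out of order, and each result was also computed without it.

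The labelled cell type was checked against markers. Of 9 luminal markers, Krt8, Krt18, Krt19, Cdh1, Epcam, Cldn3, Cldn4 and Elf3 had a peak within 100 kb in all 15 libraries and Elf5 in 12. Krt18, Epcam and Cldn3 had no promoter peak in any library. The summed promoter percentile of the list was 329 to 353 at 0h and 347 to 436 at 24h. These sums cover unlike members. The mean promoter percentile rose from 0 at 0h to 88.4 at 24h at Cldn4, from 96.1 to 96.9 at Krt8 and from 0 to 1.04 at Elf5. It fell from 91.6 to 55.3 at Krt19, from 89.0 to 87.5 at Cdh1 and from 66.3 to 62.3 at Elf3. Of 8 basal markers, Krt5, Trp63, Acta2, Myh11 and Mylk also had a peak within 100 kb in all 15 libraries, Oxtr in 5, and Krt14 and Krt17 in none. Their summed promoter percentile was 0 to 85.3 at 0h and 50.1 to 88.4 at 24h. Of 7 fibroblast markers, Col1a1 had a promoter peak in all 15 libraries. Pdgfra and Pdgfrb had a peak within 100 kb in 12 libraries each and Dcn in 7, and Col1a2, Col3a1 and Lum had none. The summed promoter percentile was 51.4 to 66.1 at 0h and 78.5 to 103.5 at 24h. No promoter of the 4 immune or the 3 endothelial markers had a peak, although all of these genes but Cd3e had a peak within 100 kb in some libraries. The part of other cell types in the results below was not tested.

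Windows of the mm9 genome (NCBIM37, plus strand) carry the patterns described below. They are 300 bases around the strongest summit of the region, shown for the promoters of Krt8 and Krt19, which were marked at 0h, for regions that rose with TGF-β (Krt20, Krt79, Krt80) and for regions that fell (Krt19, Krt32). Capitals mark matches, on either strand, to the letters TGANTCA (AP-1), GGAATG (TEAD), AACCNGTT (GRHL), TGTGGT (RUNX), CCGGAA (ETS), CAGACA (SMAD) and GGGNGTGG (KLF).
Krt8 promoter, chr15:101835391-101835690: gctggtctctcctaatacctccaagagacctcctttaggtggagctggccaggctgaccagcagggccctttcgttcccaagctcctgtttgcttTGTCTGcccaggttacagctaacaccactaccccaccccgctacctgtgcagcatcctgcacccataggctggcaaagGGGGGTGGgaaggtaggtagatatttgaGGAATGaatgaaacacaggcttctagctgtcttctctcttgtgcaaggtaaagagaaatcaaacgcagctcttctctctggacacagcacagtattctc
Krt19 promoter, chr11:100007816-100008115: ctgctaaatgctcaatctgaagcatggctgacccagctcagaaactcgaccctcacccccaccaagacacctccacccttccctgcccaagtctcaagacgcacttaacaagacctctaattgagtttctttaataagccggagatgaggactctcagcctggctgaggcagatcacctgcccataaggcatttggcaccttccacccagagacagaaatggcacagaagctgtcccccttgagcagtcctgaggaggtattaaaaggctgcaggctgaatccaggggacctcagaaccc
Krt20, 21.0 kb upstream, chr11:99320352-99320651: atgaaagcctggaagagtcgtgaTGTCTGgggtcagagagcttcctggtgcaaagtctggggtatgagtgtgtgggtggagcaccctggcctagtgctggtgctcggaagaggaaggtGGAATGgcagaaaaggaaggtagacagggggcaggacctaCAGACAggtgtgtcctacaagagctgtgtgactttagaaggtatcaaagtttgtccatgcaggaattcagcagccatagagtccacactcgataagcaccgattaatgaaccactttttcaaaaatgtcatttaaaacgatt
Krt79, 2.1 kb upstream, chr15:101772666-101772965: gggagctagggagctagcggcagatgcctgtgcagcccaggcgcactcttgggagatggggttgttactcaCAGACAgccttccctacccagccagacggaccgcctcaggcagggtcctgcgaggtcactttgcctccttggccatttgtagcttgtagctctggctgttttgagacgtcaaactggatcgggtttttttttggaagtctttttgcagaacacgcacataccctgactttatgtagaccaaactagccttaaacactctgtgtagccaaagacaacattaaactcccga
Krt80, 14.1 kb downstream of the start, chr15:101183919-101184218: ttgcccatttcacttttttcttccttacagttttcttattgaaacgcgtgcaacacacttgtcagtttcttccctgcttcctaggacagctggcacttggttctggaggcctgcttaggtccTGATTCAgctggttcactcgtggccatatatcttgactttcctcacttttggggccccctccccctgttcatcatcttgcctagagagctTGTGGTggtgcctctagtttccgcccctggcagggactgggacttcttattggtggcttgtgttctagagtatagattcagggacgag
Krt19, 16.6 kb upstream, chr11:100026407-100026706: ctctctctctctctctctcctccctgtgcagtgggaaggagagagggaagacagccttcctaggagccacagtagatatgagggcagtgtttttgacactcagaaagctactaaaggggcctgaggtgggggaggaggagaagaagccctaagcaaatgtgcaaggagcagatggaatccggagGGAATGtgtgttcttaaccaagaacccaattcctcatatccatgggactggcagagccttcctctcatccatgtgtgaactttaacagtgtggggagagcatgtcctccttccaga
Krt32, 17.4 kb downstream of the start, chr11:99929178-99929477: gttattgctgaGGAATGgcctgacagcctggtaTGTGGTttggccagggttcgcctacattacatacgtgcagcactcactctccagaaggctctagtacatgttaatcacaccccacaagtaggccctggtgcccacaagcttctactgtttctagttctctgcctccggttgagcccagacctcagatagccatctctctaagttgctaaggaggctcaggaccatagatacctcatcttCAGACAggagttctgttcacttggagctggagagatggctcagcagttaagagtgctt

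The Krt80 window holds an AP-1 match and a RUNX match, and the Krt20 window a TEAD match and 2 SMAD matches. The Krt32 window holds TEAD, RUNX and SMAD letters, the Krt19 window at 16.6 kb a TEAD match, and the Krt19 promoter window none of the 7 motifs. Over the 87 tested keratin regions, AP-1 letters were in 6 windows (6.9%, against 8.76% of the 60506 windows of all tested regions), TEAD in 20 (23.0%, against 15.8%), SMAD in 32 (36.8%, against 26.9%), RUNX in 19 (21.8%, against 19.3%), KLF in 7 (8.05%, against 10.4%), GRHL in 4 (4.6%, against 2.17%) and ETS in 2 (2.3%, against 6.78%). Among the 16 regions higher at 24h than at 0h, 3 held AP-1, 4 TEAD, 6 RUNX and 9 SMAD letters. Among the 5 lower ones, none held AP-1, 2 held TEAD and 1 held SMAD. These are matches of letters, and the median GC content of the keratin windows was 51.3%, against 49.0% for all.

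At 0h, 17 of the 46 keratin genes were marked, that is, had a keratin peak in all 3 libraries, and all 6 genes of the simple epithelial class were among them. These were Krt7, Krt8, Krt18, Krt19, Krt20 and Krt23. Of 8 basal and stratified genes, 4 were marked (Krt4, Krt5, Krt13 and Krt80). The epidermal and corneal class had 3 of 10 (Krt10, Krt78 and Krt79), the hair follicle class 2 of 19 (Krt31 and Krt32), and Krt39 and Krt42 were marked among the 3 others. The number of marked genes was 18 at 4h, 20 at 24h, 17 at ERKi 4h and 16 at ERKi 24h, and 16 genes were marked in every condition. Krt32 was unmarked at 4h and ERKi 24h through the assignment of peaks. In replicate 2 of both conditions its region 17.4 kb after the start had a peak (38.3 and 22.2 by percentile of pileup, defined above) that was not assigned to Krt32. No peak in any library was assigned to 22 genes, among them the basal genes Krt14, Krt16 and Krt17 and the epidermal genes Krt1, Krt2 and Krt9. The genes Krt15, Krt81 and Krt222 had peaks in 2, 4 and 1 libraries and were marked in no condition. In all, 21 of the 46 keratin genes (45.7%) were marked in at least 1 condition, against 13896 of the 22380 protein-coding genes.

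**Figure D1:**
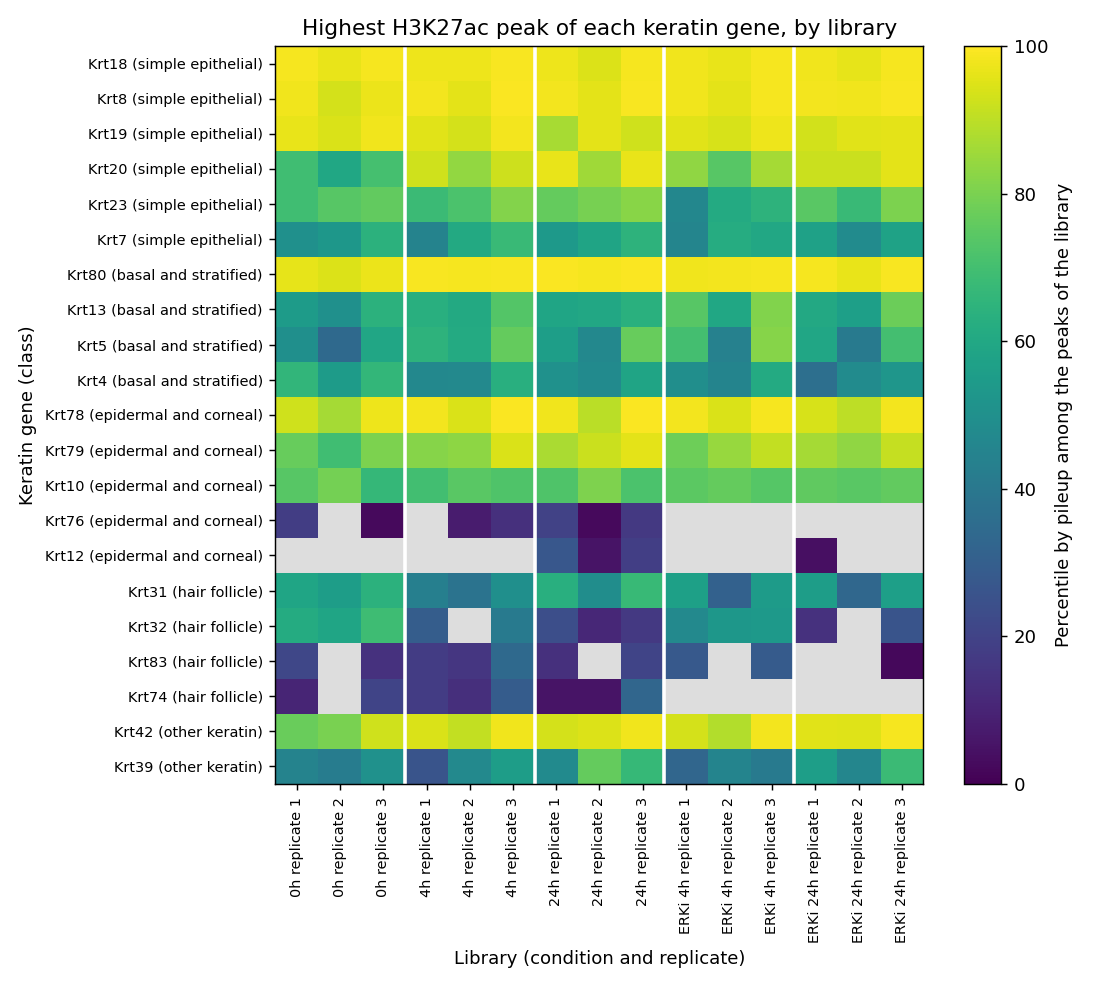
Percentile by pileup (colour, 0 to 100) of the highest peak of each of the 21 keratin genes marked in at least 1 condition (rows, by class), in each of the 15 libraries (columns), with grey where no peak was called. Krt8, Krt18 and Krt80 stay above 93 throughout, Krt20 rises from 59.7 to 70.6 at 0h to 85.9 to 96.8 at 24h, and Krt74 and Krt76 are grey in all ERKi libraries.

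Most tested keratin regions had their summit outside a promoter. Of the 87 tested regions, 6 had their summit in a promoter (1000 bp before to 100 bp after a start site), 61 were intergenic, 15 were in introns and 5 in exons. A promoter peak was present in all 15 libraries at Krt7 and Krt8 and in 14 at Krt19. Krt80 had one in 9 libraries, among them all 3 at 0h and all 3 at ERKi 4h. A tested region of Krt80 had its summit 144 bp after the start, just past the limit of the promoter. The Krt8 promoter region (chr15:101834974-101837603) was at percentiles 97.7, 93.4 and 97.2 at 0h, at 98.3, 93.2 and 99.04 at 24h and at 98.1, 94.2 and 99.03 at ERKi 24h. Its difference between 24h and 0h was 0.76 ± 1.82 percentile points (SE, n = 3 and 3, adjusted p = 0.861, limma). The groups overlapped, and the pileup at 0h was 303, 140 and 192 fragments. Krt18, the partner of Krt8, had no peak in its promoter window, and its strongest region, 2.9 kb upstream, was at 98.8, 96.6 and 98.8 at 0h and 97.1, 92.7 and 98.5 at 24h. Its intronic region 588 bp after the start was between 89.9 and 93.1 in all 15 libraries. Of the 20 tested regions of Krt8 and Krt18, 1 was called lower at 24h and none higher, while with the replicate number as a block 3 regions of Krt8 were called higher, among them the intronic region 653 bp after the start (90.2 ± 5.21 at 0h and 95.0 ± 1.44 at 24h, adjusted p = 0.0213).

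Over all 5 conditions, 20 of the 87 keratin regions passed the limma moderated F test (23.0%), against 21.9% of all regions tested. Replicate numbers paired the libraries across conditions, and with the number as a block 40 keratin regions passed (46%, against 39.4% of all). Between 11 and 22 passed when a library was left out. The count was 12 without 0h replicate 1, 11 without 24h replicate 1, 13 without 24h replicate 3, 13 without ERKi 4h replicate 1 and 13 without ERKi 24h replicate 1. In all, 25 regions of 11 genes passed the F test or a comparison, and each is named below.

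After 24h of TGF-β more keratin regions had gained H3K27ac than lost it. Of the 87, 16 were called higher than at 0h (18.4%, against 13.7% of all regions) and 5 lower (5.75%, against 6.41%). With the block these were 28 (32.2%, against 19.8%) and 7 (8.05%, against 11.7%). The median difference over the keratin regions was 4.40 percentile points and that over all regions 0.50. Both directions together gave 21 calls, which became 13 without 24h replicate 1 and 11 without 24h replicate 3. These calls, and the counts by class below, include regions that passed the filter only through the group where they are high. Among the gains these were 2.3 kb upstream of Krt12, 3.0 kb upstream of Krt39 and 6.9 kb upstream of Krt23. Among the falls it was the region 12.1 kb after the start of Krt18. By percentile of fold enrichment in place of pileup, 9 were called higher (10.3%, against 8.59% of all regions) and 3 lower (3.45%, against 4.1%), and the median difference was -0.086, against 0.773 for all regions. At 43 regions called in all 15 libraries, where a missing peak plays no part, 9 were higher (20.9%, against 10.3% of 26934 such regions) and 1 was lower (2.33%, against 5.28%) by pileup, and 17 and 4 with the block (39.5% and 9.3%, against 17.8% and 13.4%). Fold enrichment called 4 regions that pileup did not. Of these, the regions 10.5 kb upstream of Krt19 and 5.4 kb after the start of Krt13 were higher (adjusted p = 0.0059 and 0.034), and those 144 bp after the start of Krt80 and 1.1 kb after that of Krt79 were lower (0.042 and 0.0144).

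**Figure D2:**
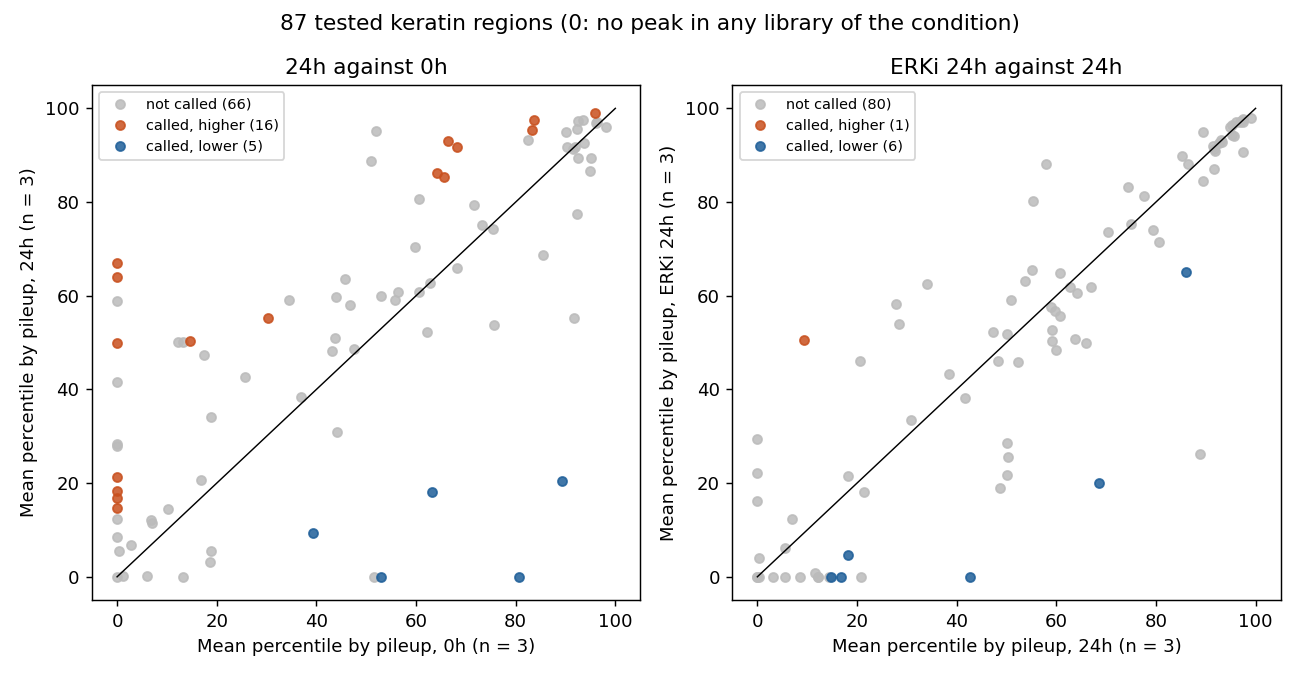
Mean percentile by pileup (n = 3 libraries each) of the 87 tested keratin regions at 24h against 0h (left) and at ERKi 24h against 24h (right), with the line of equal values and the called regions in colour. On the left, 16 regions lie above the line as called higher and 5 below it as called lower. On the right 1 is called higher and 6 lower.

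By class, the counts at 24h stand against the 13.7% higher and 6.41% lower of all regions. Simple epithelial keratins had 51 tested regions, 6 of them higher and 4 lower. Basal and stratified keratins had 4 of 13 higher and none lower, all at Krt80. Epidermal and corneal keratins had 3 of 11 higher (Krt12 and Krt79), the hair follicle class 1 of 6 lower (Krt32) and the others 3 of 6 higher (Krt39 and Krt42). With the block, 19.8% of all regions were higher and 11.7% lower. In that fit the basal and stratified class had 9 of 13 higher, the simple epithelial class 12 of 51 higher and 6 lower, and the epidermal and corneal class 4 of 11 higher.

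Krt20, a type I keratin known from intestinal epithelium and urothelium, had the most called gains, shared with Krt80. Of its 10 tested regions, 4 were higher at 24h, or 6 with the block. The region 21.0 kb upstream (chr11:99320368-99320911, intergenic) had no peak in any library at 0h, 4h or ERKi 4h. It was at 61.4, 65.2 and 74.1 at 24h and at 63.5, 50.5 and 71.8 at ERKi 24h, a gain of 66.9 ± 6.33 points at 24h (adjusted p = 1.56e-05). The 24h libraries stood fully apart from those at 0h, and those at 24h and ERKi 24h overlapped (difference -4.94 ± 6.33, adjusted p = 0.743). The pileup at 24h was 73, 57 and 85 fragments over a local background of 30.3, 17.8 and 33.9, so that the fold enrichment was 2.4, 3.1 and 2.5. With peaks of -log10 q of at least 10 only, the gain was 32.7 points (adjusted p = 0.149).

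The neighbouring region 16.5 kb upstream (chr11:99315269-99316785) was present in all libraries. It was at 69.2, 59.7 and 70.6 at 0h, at 92.8, 83.6 and 92.4 at 4h and at 96.6, 85.9 and 96.8 at 24h. Both times lay above every 0h value (23.1 ± 4.11 points at 4h, adjusted p = 0.00717, and 26.6 ± 4.11 at 24h, adjusted p = 6.27e-04). The pileup was 105, 52 and 74 fragments at 0h and 234, 103 and 198 at 24h, and the local background was 13.3, 6.29 and 9.72 at 0h and 32.7, 15.1 and 33.8 at 24h. The percentile by fold enrichment differed by -0.710 at 4h and by -5.32 at 24h. ERKi 4h, at 83.5, 74.2 and 86.7, overlapped with 4h. The other 2 called regions of Krt20 were 23.5 kb upstream (30.4 ± 7.82 at 0h and 55.2 ± 7.76 at 24h, adjusted p = 0.0353, and by fold enrichment a difference of -19.1) and 27.2 kb upstream (14.7 ± 13.9 and 50.3 ± 5.66, adjusted p = 0.0353, and 0.130 by fold enrichment). The first of these had an adjusted p of 0.118 and 0.0746 without 0h replicates 2 and 3 and of 0.0909 and 0.105 without 24h replicates 2 and 3, and the second one of 0.131 and 0.078 without 0h replicates 2 and 3 and of 0.0877 and 0.105 without 24h replicates 1 and 3. The window of the second holds AP-1 letters, and the region was at 35.5, 0 and 41.1 at ERKi 24h, 24.7 points lower than at 24h (adjusted p = 0.203, and 0.0333 with the block).

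Krt20 lies between other genes with called gains. The bounds of the stretch from the Krt12 to the Krt39 region described next (chr11:99285216-99386140, 100.9 kb) were set by called regions after the calls were seen. In it, 8 of 21 tested regions of 4 genes were higher at 24h and 1 was lower (against 13.7% and 6.41% of all regions). With the block these were 10 and 1 (against 19.8% and 11.7%). These counts describe that choice. Of the 7 keratin regions that had no peak at 0h and were called higher at 24h, 5 were in this stretch. Of these 5, 2 had peaks in the 3 libraries at 24h and in no other library, so they passed the filter of 3 libraries through the group where they are high, and their calls against 0h and ERKi 24h follow from that and are given no p. They were 2.3 kb upstream of Krt12, a corneal keratin (26.97, 5.13 and 18.6), and 3.0 kb upstream of Krt39 (7.38, 10.98 and 25.8). Both were weak, with a pileup of 28, 14 and 19 fragments at Krt12.

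Krt23, a type I keratin of simple epithelia, moved in both directions. Upstream, the region at 6.9 kb (chr11:99360716-99361445) was at 19.6, 16.7 and 18.6 at 24h, at 6.72, 7.07 and 0 at ERKi 24h and had no peak in the other 3 conditions. Its 24h values were above those at 0h (by 18.3 ± 2.55) and those at ERKi 24h without overlap. By fold enrichment the difference between ERKi 24h and 24h was not called. Without the 24h libraries this region would not have passed the filter of 3 libraries. Its calls follow in part from the group where it is high and are given no p. The region 3.6 kb upstream was at 16.0, 19.3 and 28.9 at 24h (21.4 ± 4.26 above 0h, adjusted p = 0.00328) and overlapped with ERKi 24h, at 14.2, 12.6 and 27.4.
Within an intron of Krt23, 4.0 kb after the start (chr11:99350004-99351207), the order was the reverse. This region was at 42.6, 31.0 and 44.7 at 0h, at 0, 28.0 and 0 at 24h and at 44.6, 51.6 and 55.5 at ERKi 24h. The fall at 24h was 30.1 points with an adjusted p of 0.0334 (0.0794 by fold enrichment), which became 0.0964 and 0.107 without 0h replicates 1 and 3 and 0.130 and 0.123 without 24h replicates 1 and 3. ERKi 24h was 41.2 ± 9.11 points above 24h (adjusted p = 0.0134), and 0.0616, 0.0541 and 0.0518 were the adjusted p-values without 24h replicate 1, 24h replicate 3 and ERKi 24h replicate 3. The regions 19.3 and 21.2 kb after the start passed the F test alone, with their lowest means at ERKi 4h (38.2 ± 7.95 and 57.4 ± 9.86, against 62.6 ± 12.8 and 73.8 ± 7.01 at 4h).

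Krt80, a type II keratin of many epithelia, had a peak at the 94.7 percentile or above in every library, and 4 of its 9 tested regions were higher at 24h, or 8 with the block. Its region 11.2 kb upstream was already at 96.3, 94.7 and 96.9 at 0h and was at 99.3, 98.6 and 99.3 at 24h, a small gain without overlap (3.10 ± 0.897, adjusted p = 0.0269). Without 0h replicates 1 and 2 its adjusted p was 0.0526 and 0.0991, without 24h replicates 1 and 3 it was 0.082 and 0.0755, and the percentile by fold enrichment was 15.2 points lower at 24h (-15.2). An intronic region 14.1 kb after the start (chr15:101182672-101185035), whose window is printed above with its AP-1 match, had no peak at 0h and was at 66.4, 23.9 and 59.8 at 24h, and at 39.5, 15.3 and 31.2 at ERKi 24h. The gain was 50.02 ± 10.5 points (adjusted p = 0.00452), and the 2 conditions at 24h overlapped (adjusted p = 0.259). Here the pileup at 24h was 84, 21 and 58 fragments.
The region 16.8 kb upstream (chr15:101216733-101218798) was higher at 24h and lower with the inhibitor. It was at 61.6, 58.9 and 72.1 at 0h, at 84.0, 82.2 and 92.2 at 24h and at 63.9, 59.2 and 71.8 at ERKi 24h, so that the 24h libraries lay above all others of these 3 conditions (21.9 ± 5.36 above 0h, adjusted p = 0.0111, and 21.1 ± 5.36 above ERKi 24h, adjusted p = 0.0278). The pileup was 83, 51 and 77 fragments at 0h, 139, 92 and 153 at 24h and 77, 49 and 97 at ERKi 24h. By fold enrichment the first difference was -13.5 and the second, ERKi 24h minus 24h, 11.03, neither of them called. The inhibitor call had an adjusted p of 0.0659 and 0.103 without 24h replicates 1 and 3, and of 0.0791 and 0.0759 without ERKi 24h replicates 1 and 2, and the gain had one of 0.0538 without 24h replicate 3. The fourth region, 30.4 kb after the start and beyond the gene, was at 83.6 ± 7.18 at 0h and 97.4 ± 1.48 at 24h (adjusted p = 0.00910), and by fold enrichment its difference was -14.9. It was at 90.6 ± 3.47 at ERKi 24h, 6.80 points below 24h without overlap (adjusted p = 0.246, and 0.0306 with the block).

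**Figure D3:**
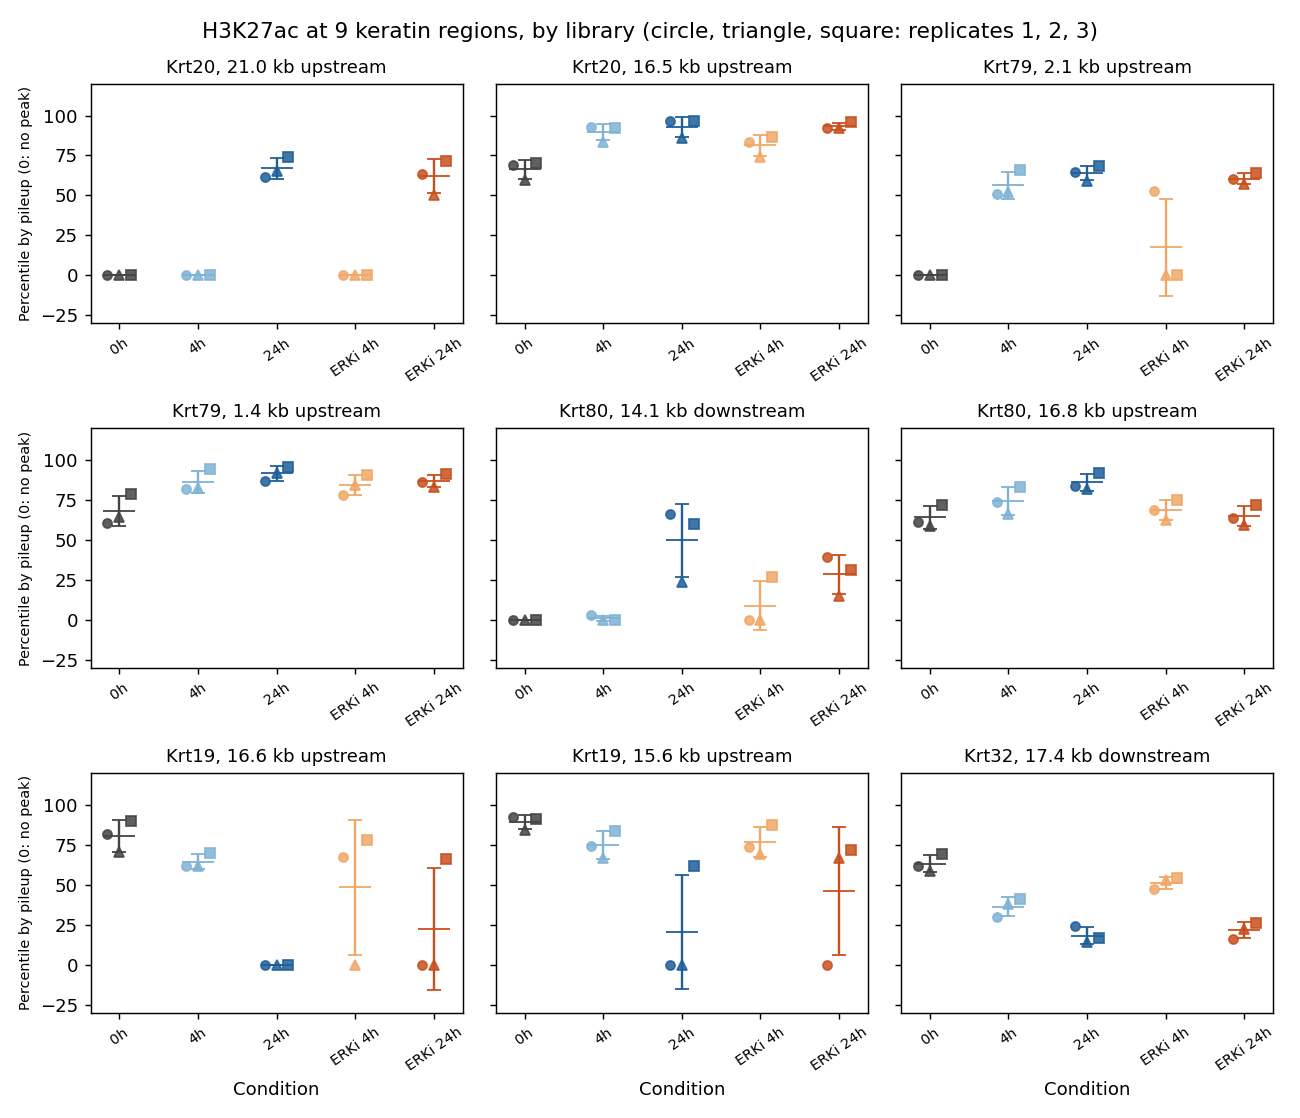
Percentile by pileup in each library at 9 keratin regions, with circles, triangles and squares for replicates 1, 2 and 3 and bars for the mean ± SD of a condition (n = 3). The Krt20 region at 21.0 kb is at 0 in all libraries of 0h, 4h and ERKi 4h and between 50.5 and 74.1 in both 24h conditions, the Krt80 region at 16.8 kb has its highest mean at 24h, and the Krt32 region falls from 63.2 ± 5.22 at 0h to 18.2 ± 5.37 at 24h.

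Krt79, a type II keratin of the epidermis and sebaceous gland duct, gained early. The region 2.1 kb upstream (chr15:101772690-101773155) had no peak at 0h and was at 50.7, 52.1 and 65.8 at 4h and at 64.6, 59.2 and 68.4 at 24h (56.2 ± 11.5 points, adjusted p = 0.0173, and 64.1 ± 11.5, adjusted p = 0.00167). At ERKi 4h it was called in replicate 1 only, at 52.5, and at ERKi 24h it was at 60.004, 57.4 and 64.2. ERKi 4h and 4h overlapped, and their difference was -38.7 ± 11.5 (adjusted p = 0.437). The 4h call had an adjusted p of 0.0576, 0.0525 and 0.0524 without 0h replicates 1, 2 and 3 and of 0.0758 without 4h replicate 3. The fold enrichment at 4h was 2.1, 2.25 and 1.98 over a local background of 27.1, 17.6 and 35.9, and by its percentile neither gain was called (adjusted p = 0.984 and 0.0628). The neighbouring region 1.4 kb upstream was at 60.9, 64.8 and 78.7 at 0h, 81.8, 82.9 and 94.4 at 4h and 87.1, 92.0 and 96.0 at 24h. Its 24h gain (23.6 ± 4.86, adjusted p = 0.00408) was also called by fold enrichment (adjusted p = 0.0328), and its 4h gain of 18.3 points was called with the block (adjusted p = 5.61e-04) and not without it (adjusted p = 0.0733).

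Krt42, which lies beside Krt17 on chromosome 11, had 2 of 3 regions higher at 24h. The region 17.1 kb upstream was at 61.3, 62.7 and 73.0 at 0h and at 82.8, 79.1 and 94.0 at 24h (adjusted p = 0.0312, and 0.834 by fold enrichment), and the region 20.8 kb upstream at 77.2, 79.8 and 92.7 at 0h and 93.4, 94.8 and 97.8 at 24h (adjusted p = 0.0290). Neither overlapped between 0h and 24h, and both stayed high at ERKi 24h, at 89.8 ± 7.61 and 96.5 ± 1.97. Without 24h replicate 3 the adjusted p-values were 0.132 and 0.0987, without 24h replicate 1 they were 0.0623 and 0.0534, without 0h replicate 1 they were 0.105 and 0.122 and without 0h replicate 2 they were 0.0890 and 0.0988. By fold enrichment the second region was 2.38 points lower at 24h.

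The falls at 24h were at Krt19, Krt18, Krt23 and Krt32. Krt19, the type I keratin of luminal and ductal cells, had 10 tested regions, and 2 of them were lower at 24h, or 4 with the block. The region 16.6 kb upstream (chr11:100026483-100027207) was at 81.7, 70.4 and 90.01 at 0h, at 61.8, 62.0 and 69.8 at 4h and had no peak in any library at 24h. At ERKi 24h it was called in replicate 3 only, at 66.3. The fall at 24h was 80.7 points (SE 19.2, adjusted p = 0.00955, and 0.112 by fold enrichment), and 51.6 points with peaks of -log10 q of at least 10 only (adjusted p = 0.0719). The pileup at 0h was 153, 68 and 132 fragments over a local background of 62.4, 29.7 and 51.7.
The region 15.6 kb upstream was at 92.3, 84.2 and 91.2 at 0h, at 74.5, 66.7 and 84.0 at 4h and at 0, 0 and 61.7 at 24h. This fall was 68.7 points (SE 17.9, adjusted p = 0.0159, 0.063 by fold enrichment, and 0.0719 and 0.0507 without 24h replicates 1 and 2), and ERKi 24h, at 0, 66.9 and 71.5, overlapped with 24h. A further region went the other way by fold enrichment. The region 10.5 kb upstream (chr11:100020134-100022052) was at 96.6, 90.1 and 97.95 by pileup at 0h and at 79.9, 89.2 and 90.6 at 24h, overlapping and not called (-8.36 ± 4.08, adjusted p = 0.177). On the scale of fold enrichment its percentile went from 53.4 ± 1.80 (0h) to 78.99 ± 8.37 (24h), a gain that was called (25.6, adjusted p = 0.0059). The highest fold enrichment percentile of the gene was likewise higher at 24h without overlap (by 25.7). The number of keratin peaks assigned to Krt19 was 11, 14 and 14 at 0h and 9, 9 and 10 at 24h, without overlap (exact permutation p = 0.1, two-sided, the smallest that 3 against 3 allow, and adjusted p = 0.933 over 84 gene comparisons). The promoter region itself (chr11:100007744-100008463) was at 89.5, 89.6 and 95.7 at 0h and at 0, 82.5 and 83.3 at 24h, where 24h replicate 1 alone had no peak. The groups did not overlap, and the difference of -36.3 ± 16.0 was not called (adjusted p = 0.132). The exonic region 666 bp after the start was at 95.1 ± 0.607 at 0h and 89.5 ± 5.95 at 24h (adjusted p = 0.088).

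Another region of Krt19, 2.1 kb upstream (chr11:100011792-100012391), was the only keratin region called between ERKi 4h and 4h. It was at 71.1, 63.4 and 88.7 at 4h and had no peak in any ERKi 4h library, a fall of 74.4 points (SE 13.0, adjusted p = 0.0397). At 24h it was at 60.4, 68.3 and 77.3, and at ERKi 24h at 0, 60.03 and 0 (a fall of 48.6 points, adjusted p = 0.0366). The fold enrichment at 4h was 2.09, 1.82 and 2.3, and by its percentile the adjusted p-values were 1 and 0.444. The call at 4h was lost in 17 of 21 alternatives, among them those without any 1 of the libraries of 0h, 4h, 24h and ERKi 4h (adjusted p from 0.0569 to 0.203). That at 24h was lost in 15 of 21, among them those without any 1 of the 0h libraries, 4h replicate 1, any 1 of the 24h libraries, ERKi 4h replicate 1, or ERKi 24h replicate 1 or 3 (up to 0.142).

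Krt32 is a hair keratin. Its region 17.4 kb after the start (chr11:99927653-99929669, intergenic) lies about midway between the starts of Krt32 and Krt31, and in 4 libraries (4h replicate 2, 24h replicate 2, ERKi 24h replicates 1 and 2) its strongest peak was not assigned to Krt32. It was at 61.6, 58.9 and 69.0 at 0h, at 29.6, 38.3 and 41.3 at 4h and at 24.2, 13.9 and 16.5 at 24h. The pileup was 83, 51 and 71 fragments at 0h and 26, 17 and 18 at 24h, over a local background of 11.9, 7.2 and 10.0 at 0h, and every 24h library was below every 4h library and these below every 0h library. The fall at 24h (45.0 points, SE 6.42, adjusted p = 3.70e-04) was called in 23 of 23 alternatives, fold enrichment among them. At 4h the fall was 26.8 points (adjusted p = 0.0437), and it was not called in 15 of 23 alternatives. The call was lost without any 1 of the libraries of 0h, 4h and ERKi 4h, without 24h replicate 1 or 3 and without ERKi 24h replicate 1 (adjusted p between 0.0539 and 0.185).
ERKi 4h was at 47.1, 53.0 and 54.1, above all 4h libraries and below all 0h libraries, a difference from 4h of 15.0 ± 6.42 that was not called (adjusted p = 0.861, and 0.294 with the block). At ERKi 24h the region was at 16.3, 22.2 and 26.0 and overlapped with 24h.

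The last fall was at Krt18, 12.1 kb after the start (chr15:101870392-101870847). It had a peak in the 3 libraries at 0h (52.4, 52.1 and 54.6), in replicate 3 alone at 4h (56.4) and ERKi 4h (53.4) and none at 24h or ERKi 24h. The fall of 53.0 points was not called by fold enrichment. Without the 0h libraries this region would not have passed the filter of 3 libraries. Its call follows in part from the group where it is high and is given no p. The fold enrichment at 0h was 2.1, 2.4 and 2.1. The call was lost without 0h replicate 1, 2 or 3 and without 24h replicate 1 or 3.

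**Figure D4:**
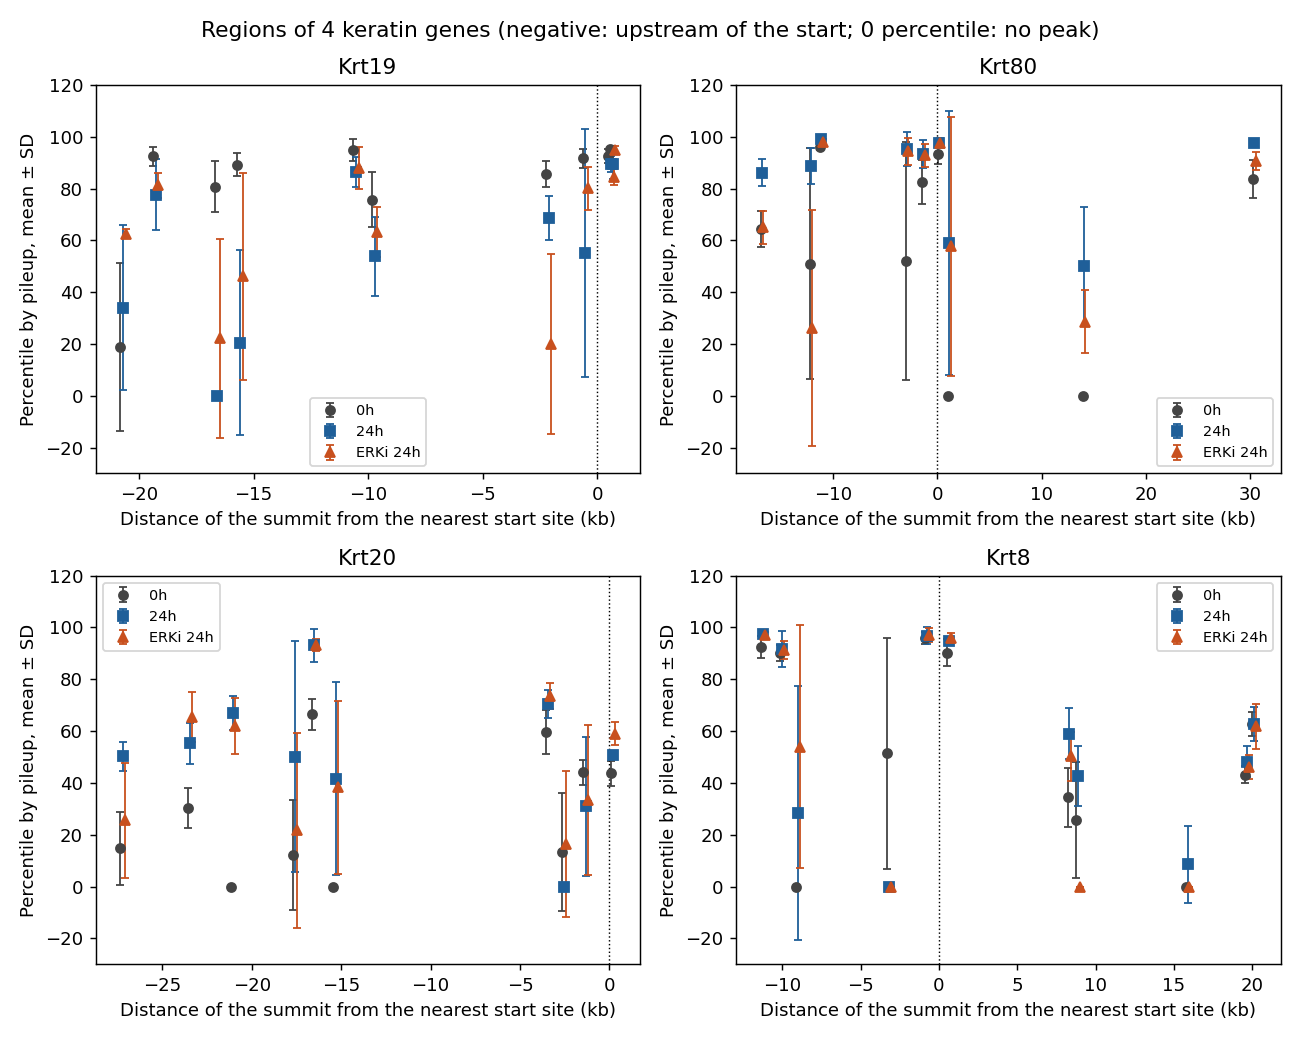
Mean ± SD (n = 3) of the percentile by pileup at 0h, 24h and ERKi 24h for the tested regions of Krt19, Krt80, Krt20 and Krt8, against the distance of the summit from the nearest start site in kb (points of a region are moved slightly apart). At Krt19 the 24h values lie lowest 15.6 and 16.6 kb upstream, the 4 called regions each of Krt80 and Krt20 lie higher at 24h than at 0h, and the Krt8 promoter mean is 96.1 at 0h and 96.9 at 24h.

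The number of early calls depended on the block, and without it they were few. At 4h, 2 keratin regions were higher than at 0h (2.3%, against 2.12% of all regions), at Krt20 and Krt79, and 1 was lower (1.15%, against 0.580%), at Krt32. With the block, 13 were higher (14.9%, against 5.49%), among them 4 of Krt80, and 1 lower (against 1.76%). At the 43 regions called in all 15 libraries, 15 were higher with the block (34.9%, against 10.1% of such regions) and 2 lower (4.65%, against 2.53%). Without the block, 1 of these 43 was higher (2.33%, against 3.24%) and 1 lower (2.33%, against 0.126%). The 3 calls among the 87 without the block became 1 without 0h replicate 1, 0h replicate 2 or 4h replicate 3 and 5 without 0h replicate 3. By fold enrichment limma called no keratin region at 4h, and 2 higher and 3 lower had an unadjusted p under 0.05.

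Calls under the inhibitor were few at both times. None was higher at ERKi 4h than at 4h (against 0.0297% of all regions) and 1 was lower (1.15%, against 0.165%), the Krt19 region above, and limma gave an unadjusted p under 0.05 to 1 higher and 8 lower. By fold enrichment none was called. At ERKi 24h, 1 was higher than at 24h (1.15%, against 4.08%), in the intron of Krt23, and 6 were lower (6.9%, against 3.98%). With the block these were 1 (against 9.87%) and 10 (11.5%, against 7.71%). The lower ones were at Krt12, Krt39, Krt23, Krt19, Krt80 and Krt8. Those of Krt12 and Krt39 were the regions with peaks at 24h alone, and that of Krt23 passed the filter only through 24h. At Krt8 this was a region 8.9 kb after the start (chr15:101825731-101826044), at 34.2, 37.9 and 55.8 at 24h and without a peak in any ERKi 24h library (a fall of 42.6 points, adjusted p = 0.0209, and 0.406 by fold enrichment). That call was lost without 24h replicate 3 (adjusted p = 0.0779) and without ERKi 24h replicates 1 or 3 (0.0586 and 0.0615). The 7 calls at 24h became 2 without 24h replicate 1, 1 without 24h replicate 3 and 2 without ERKi 24h replicate 1 or replicate 3. The comparisons of 24h with 0h and of ERKi 24h with 24h share the 24h libraries.

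No keratin region was called in the difference of the inhibitor's effects at 24h and 4h by limma (against 1.06% of all regions), with 2 higher and 4 lower at an unadjusted p under 0.05. With the block 1 was called, by fold enrichment 2, and 1 without ERKi 4h replicate 1 or ERKi 24h replicate 2.

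By gene, the highest peak was compared between libraries for the 21 genes marked in at least 1 condition. The groups did not overlap between 4h and 0h for 6 genes (4 higher, 2 lower, against 13.1% of 13896 genes in either direction), between 24h and 0h for 7 (6 higher, 1 lower, against 22.9%), between ERKi 4h and 4h for 3 (1 higher, 2 lower, against 7.46%) and between ERKi 24h and 24h for 3, all lower (against 17.0%). At 24h the higher genes were Krt12, Krt20, Krt23, Krt42, Krt79 and Krt80, and Krt32 was the lower one. At 4h they were Krt5, Krt20, Krt79 and Krt80, with Krt31 and Krt32 lower, both of which depend on the assignment of the region between them. Under the inhibitor Krt32 was higher and Krt23 and Krt74 lower at 4h, and Krt12, Krt74 and Krt76 were lower at 24h. Krt12 and Krt76 were marked at 24h alone and Krt74 at 4h and 24h alone, so they entered the 21 genes through groups where they are high. That the inhibitor libraries of these genes lay lower, and that Krt12 was higher at 24h than at 0h, follows in part from this. Krt5, the type II keratin of basal cells, had its highest peak at 49.8, 34.1 and 59.0 at 0h and at 64.6, 61.3 and 76.4 at 4h. The smallest p of these tests is 0.1, and the adjusted values were 0.442 or more.

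Krt74 and Krt76, a hair root sheath keratin and a keratin of the oral epithelium, had weak peaks that were absent under the inhibitor. Krt74 was at 17.9, 13.4 and 29.1 at 4h and at 5.16, 5.13 and 32.9 at 24h, and Krt76 at 19.6, 2.65 and 16.5 at 24h, and neither had a peak in any of the 6 ERKi libraries. At 0h, Krt74 was at 10.4, 0 and 20.4. Their regions were not called without the block, and with it the Krt74 region passed the F test over the 5 conditions. For the Krt74 region the difference between ERKi 24h and 24h had an adjusted p of 0.266, and of 0.103 with the block. The epidermal keratin Krt10 lay between 66.7 and 80.7 in all 15 libraries. Krt4 and Krt13, the pair of the oral and oesophageal epithelium, were at 54.8 to 66.1 and 50.1 to 64.3 at 0h and at 48.0 to 58.5 and 58.9 to 63.5 at 24h. Krt7, found in ductal epithelium, was at 50.3 to 64.3 at 0h and 54.2 to 64.7 at 24h, and Krt78 at 86.7 to 97.4 and 89.6 to 99.5. Krt83, a hair keratin, reached at most 34.1.

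The number of keratin peaks per library was 79, 87 and 91 at 0h, 87, 90 and 90 at 4h and 94, 93 and 105 at 24h. It was 84, 82 and 93 at ERKi 4h and 92, 85 and 87 at ERKi 24h. The 24h libraries lay above those of 0h and of ERKi 24h without overlap (exact permutation p = 0.1 each, adjusted p = 0.533). As a share of all peaks of the library, 0h was at 0.155% ± 0.0060 (SD, n = 3), 24h at 0.157% ± 0.0080 and ERKi 24h at 0.140% ± 0.0131, with overlap. As a share of all bases in peaks, 0h was at 0.158% ± 0.0109, 24h at 0.156% ± 0.0040 and ERKi 24h at 0.145% ± 0.0029, with overlap between 24h and 0h and none between ERKi 24h and 24h (exact permutation p = 0.1, adjusted p = 0.533).

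The proteins that anchor keratins at the cell border were examined by the same fits. The 18 desmosome and hemidesmosome genes had 124 tested regions, of which 25 were higher and 9 lower at 24h than at 0h (against the 13.7% and 6.41% of all regions given above, with a median difference of 3.56 points). With the block these were 35 and 14 (against 19.8% and 11.7%). The F test was passed by 29 (against 21.9%), or by 57 with the block (against 39.4%). For Pkp1, which links desmosomal cadherins to keratins, 4 of 4 regions were higher, and for the desmosomal cadherin Dsc2 3 of 4. Ppl, a plakin of desmosomes and the cornified envelope, had 2 of 8 lower and none higher. At ERKi 24h, 2 regions of the 18 genes were higher and 2 lower than at 24h (against 4.08% and 3.98% of all regions), or 15 and 5 with the block (against 9.87% and 7.71%). The 11 other intermediate filament genes examined, such as Lmna and Nes, had 36 tested regions. At 24h, 7 of these were higher and none lower (against 13.7% and 6.41% of all regions), or 12 and 1 with the block (against 19.8% and 11.7%). At ERKi 24h, 3 of the 36 were lower than at 24h (against 3.98% of all regions), or 6 with the block (against 7.71%).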

How the data were processed

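H3K27ac ChIP-seq of 15 libraries was analysed. The 10 RNA-seq and 3 input samples were not analysed here. Per the labels and the study's methods, Bowtie (genome mm9) and MACS2, both with default parameters, made a separate list for every library. The lists the authors deposited give each peak's summit, its fold enrichment (a ratio of pileup to local background) and -log10 p and -log10 q, without normalization between libraries. The pileup and background were solved from fold enrichment and -log10 p as a Poisson tail. For 893694 of 893719 peaks a whole number gave both deposited values within 0.005.

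Peaks overlapping by at least 1 bp were merged, and each region received the highest percentile of its peaks in each library, or 0. Regions called in at least 3 libraries were fitted with limma (moderated F and contrasts, trended prior) over all 15 libraries, with Benjamini-Hochberg adjustment over the 60506 regions and a threshold of 0.05. Libraries with the same replicate number deviated together, with r above 0.1, in 30 of 30 pairs (mean r = 0.333, lowest 0.126). Over the keratin regions alone this held in 24 of 30 pairs (lowest r = -0.204). Of pairs of other numbers, 2 of 60 were above 0.1 (mean r = -0.165). Deviations cancel out within a condition, so this second count is tied to the first and is no separate evidence. The fit with the number as a block is given beside the counts over all keratin regions, classes and lists that it moved by over 1.5 times. Single values per gene or library were compared by two-sided exact permutation tests.

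The regions named are those past the threshold in the F test or a comparison, and the genes those marked in at least 1 condition. Members, lists and tests were chosen with earlier results of these data known. The alternatives were the percentile by fold enrichment or -log10 p, peaks of -log10 q of at least 10, no filter, peaks spanning 0.5 or more of the merged region, start sites of all biotypes, a distance of 50 kb, symbols that end in a letter, each library left out, and, added after the data were seen, regions called in all 15 libraries. No interval was computed, since no read totals are given. The code was tested on simulated data. Computations used Python 3.11.15, NumPy 2.4.6, SciPy 1.17.1, pandas 2.3.3, matplotlib 3.10.9, R 4.3.3 and limma 3.58.1. Sequences were read from NCBIM37.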

Additional observations from a re-analysis of the deposited data

How the results depend on the processing

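The counts of called keratin regions depended on the measure, on the block and on single libraries. Regions passing the F test numbered 20, and 9 by fold enrichment, 40 with the replicate block, 5 with -log10 q of at least 10, 12 without the filter, 9 with a cover of 0.5 and 7 among regions called in all libraries. At 4h against 0h the 3 calls became 0 by fold enrichment, 1 by -log10 p, 14 with the block and 17 with the block among regions called in all libraries. At 24h against 0h the 21 calls became 12 by fold enrichment, 35 with the block, 9 with -log10 q of at least 10 and 10 among regions called in all libraries. The single call at ERKi 4h was lost (0 calls) by fold enrichment, by -log10 p, with -log10 q of at least 10, without the filter, with a cover of 0.5 and among regions called in all libraries. At ERKi 24h the 7 calls became 3 by fold enrichment, by -log10 p and with a cover of 0.5, 11 with the block, 0 with -log10 q of at least 10 and 1 among regions called in all libraries. The inhibitor's effects at the 2 times differed at 0 regions, at 2 by fold enrichment and at 1 with the block or without the filter. With a library left out the counts were 11 to 22 (F test), 1 to 5 (4h), 11 to 23 (24h), 0 to 1 (ERKi 4h), 1 to 7 (ERKi 24h) and 0 to 1 (difference of effects).

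By fold enrichment the differences turned at Krt20 (16.5 kb upstream, -0.710 at 4h and -5.32 at 24h, and 23.5 kb upstream, -19.1), at Krt42 (20.8 kb upstream, -2.38) and at Krt80 (-14.9, -15.2 and -13.5 at 24h for the regions 30.4 kb after, 11.2 kb before and 16.8 kb before the start, and 11.03 at ERKi 24h for the last). None of these was called by that measure. The cause was not tested. Bases in keratin peaks differed with a library left out between -862 and 6530 (4h), -209 and 7793 (24h), -6602 and 448 (ERKi 4h) and -6760 and 2892 (ERKi 24h), so no direction was read from them. Genes marked at 0h numbered 17 to 20 and keratin regions 104 to 107 with a library left out. Of the results for single regions, 523 kept direction and call, 136 kept the direction without the call and 8 turned. Without read totals the precision rests on 3 replicates, and weak regions lie near the limit of the peak caller.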
